A study of Mus musculus with 4 samples.

Results

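Claudins are the membrane proteins that form the strands of tight junctions, and 9 claudin genes were examined in CD45-negative cells of mouse lymph nodes: Cldn1, Cldn3, Cldn4, Cldn7, Cldn8, Cldn10, Cldn11, Cldn12 and Cldn15. They were selected on their differences between mLN and pLN on these arrays, as claudins of mesothelial, glandular and lymphatic barriers, and every non-control probe that the array files name for one of them was taken. This gave 10 probes, 2 for Cldn1 and 1 for each other gene. The 9 genes were among 21392 genes tested, and all 9 passed the filter on dim probes. Of the probes, 9 of 10 were well above background on all 4 arrays, and that of Cldn8 was so on 1 of 2 mLN arrays and both pLN arrays. Because the node difference was used in choosing the genes, it is given for them as a description, without p-values, and counts of members past a threshold are not evidence.

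The first node was the mesenteric (mLN), where lymph of the intestine is filtered, and the other a peripheral one (pLN). All mice were wild type of strain C57BL/6NCrl, and the labels give no age and do not say which peripheral nodes were taken or whether animals were pooled. Nodes were digested with collagenase (1 mg/ml, 30 min) and CD45-negative cells were isolated with magnetic beads, to a stated purity of 97.4% ± 2.0 for mLN and 97.5% ± 2.2 for pLN. In each of 2 independent experiments, total RNA of both nodes was labelled and read on 1-colour whole-genome arrays, which gave 2 arrays for mLN and 2 for pLN. Fibroblastic reticular cell markers were well above background on all 4 arrays (7 of 7 tested), and the summed signal of 6 leukocyte markers was 6.12 and 4.31 in mLN and 10.6 and 6.02 in pLN, in units of the 75th percentile of the array. The design text calls the cells stem cells and the title stromal cells. Between 74.0% and 81.1% of the probes of an array were well above background. Whether separate animals were used is not stated in the labels, and the p-values therefore cover only the spread of these samples, which may be technical. In bulk samples such as these, fewer cells of a type and less RNA per cell cannot be told apart.

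In epithelia and mesothelia, claudins of neighbouring cells bind each other across the gap between the cells and set which ions and solutes may pass. Some, such as claudins 1, 3, 4, 7 and 8 in many glands and in skin, mostly tighten the barrier, whereas others, such as claudins 2, 10 and 15, form charge-selective channels. Endothelium relies largely on claudin 5. Fibroblastic cells, the main stroma of a lymph node, are not known for tight junctions.

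On the arrays the members fell into 3 groups. Cldn15 and Cldn10 were higher in mLN than in pLN in both experiments. Cldn1, Cldn7, Cldn8 and Cldn11 were lower in both. The signs of Cldn3, Cldn4 and Cldn12 differed between the experiments. The values of mLN and pLN did not overlap for 6 of the 9 genes, 2 higher and 4 lower in mLN, where 45.6% of all genes tested did not overlap (20.6% higher, 25.1% lower). The fit across all genes, which holds the members too, put 1 of the 9, Cldn15, at an adjusted p under 0.05 (limma), and 1.05% of all genes. With the experiment as a block the count was 2, Cldn15 and Cldn10, beside 1.56% of all genes. A difference of at least 1 on the log2 scale was found for 5 members, and for 7.11% of all genes. In each experiment singly, Cldn15, Cldn10 and Cldn8 reached 2-fold in 1 direction, 3 members beside 4.45% of all genes. Since the node difference entered the choice of the genes, all these counts were open to that choice, and nothing is read from them.

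The sequences before the start sites of 4 of the 6 genes whose node values did not overlap are shown, because these genes lay on opposite sides of the node comparison. Cldn8 had no entry in the promoter table and is named only, and Cldn11 is left to the counts. The windows are the 250 bases before each start in RefSeq (GRCm38.p6), written in the direction of the gene, with capitals at matches to the searched motifs.
Cldn15, chr5:136967619-136967868, plus strand: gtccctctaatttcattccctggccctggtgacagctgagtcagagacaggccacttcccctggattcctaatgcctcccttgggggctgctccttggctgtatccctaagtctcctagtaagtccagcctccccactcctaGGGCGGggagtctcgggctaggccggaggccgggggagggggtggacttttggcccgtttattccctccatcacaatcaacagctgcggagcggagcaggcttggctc
Cldn10, start 1, chr14:118787621-118787870, plus strand: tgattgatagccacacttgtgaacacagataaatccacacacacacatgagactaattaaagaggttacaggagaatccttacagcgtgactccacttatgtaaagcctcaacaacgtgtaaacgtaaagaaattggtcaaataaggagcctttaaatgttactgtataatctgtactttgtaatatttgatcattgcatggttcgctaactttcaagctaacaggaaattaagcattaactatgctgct
Cldn10, start 2, chr14:118854700-118854949, plus strand: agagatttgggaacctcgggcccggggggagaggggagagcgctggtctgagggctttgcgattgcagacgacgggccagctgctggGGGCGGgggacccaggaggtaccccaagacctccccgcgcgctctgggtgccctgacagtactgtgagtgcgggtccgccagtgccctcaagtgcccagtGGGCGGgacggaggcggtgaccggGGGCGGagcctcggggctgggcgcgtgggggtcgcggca
Cldn7, start 2, chr11:69965171-69965420, plus strand: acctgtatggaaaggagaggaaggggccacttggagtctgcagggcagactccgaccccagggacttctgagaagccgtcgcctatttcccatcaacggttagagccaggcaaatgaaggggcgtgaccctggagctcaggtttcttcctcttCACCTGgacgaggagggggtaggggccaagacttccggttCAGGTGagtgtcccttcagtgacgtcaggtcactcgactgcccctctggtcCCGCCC
Cldn1, chr16:26371840-26372089, minus strand: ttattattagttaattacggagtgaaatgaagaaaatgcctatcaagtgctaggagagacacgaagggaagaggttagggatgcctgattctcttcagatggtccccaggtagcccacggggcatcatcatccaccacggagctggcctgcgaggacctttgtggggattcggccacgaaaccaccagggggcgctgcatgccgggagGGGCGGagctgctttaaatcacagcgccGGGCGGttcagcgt

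On both strands 4 motifs were searched, and none of them overlapped another in the windows printed. They were CAGGTG, an E-box of the kind that Snail and Zeb repressors bind, GGGCGG, the GC box of Sp and Klf factors, TATAAA, the TATA box, and AACNNGTT, a grainyhead-type site. Of 32851 windows of this length in RefSeq, 17.2% held the E-box, 32.7% the GC box, 12.4% the TATA box and 3.64% the grainyhead-type site. The table held 12 windows for 8 of the 9 members. In the Cldn15 window there was 1 GC box, and in that of Cldn1 there were 2. Start 2 of Cldn10 had 3 GC boxes in a window of 72.4% G and C, whereas start 1 had none of the motifs and 36% G and C (the median of all windows was 52.4%). Start 2 of Cldn7 held 2 E-boxes and 1 GC box, and start 1 of Cldn7 held none of the motifs. The windows of Cldn3 and Cldn4 and those of starts 1 and 2 of Cldn12 held 1 GC box each. In the windows of Cldn11 and of start 3 of Cldn12 there was none of the motifs. The E-box was otherwise found in 1 member window, that of Cldn4, once. No member window held TATAAA or AACNNGTT, which says only that these letters are not in these windows.

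The probes of Cldn7 and Cldn10 are shown because each bears on which transcript is read. Positions are on mm8, the build the array files name.
Cldn7 probe, chr11:69783473-69783782, plus strand: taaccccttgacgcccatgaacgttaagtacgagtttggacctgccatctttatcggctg
Cldn10 probe, chr14:118009418-118009477, plus strand: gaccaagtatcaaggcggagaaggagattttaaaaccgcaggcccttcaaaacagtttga
The stated positions of the Cldn7 probe span 310 bases for an oligonucleotide of 60 bases, so the probe joins stretches that lie apart in the genome. The other probes lie at chr5:137260222-137260281 for Cldn15, chr16:88449749-88449808 for Cldn8, chr16:26272635-26272694 and chr16:26274273-26274332 for Cldn1, chr5:135271936-135271995 for Cldn3, chr5:135230104-135230163 for Cldn4, chr3:31354878-31354937 for Cldn11 and chr5:5511508-5511567 for Cldn12. Cldn10 has 2 start sites in RefSeq, and its single probe gives 1 value per array that does not say which start was used. Transcripts from the alternative first exons of Cldn10 encode channels of opposite charge preference.

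Values below are log2 signals relative to the 75th percentile of the array, so that 0 is the level of that percentile, and a difference is mLN minus pLN on this scale. Cldn15 encodes a cation channel claudin that is known from the small intestine, and it had the most positive difference of the members. Its levels were 3.03 and 2.54 on the mLN arrays of experiments 1 and 2, against 0.11 and 0.14 on the pLN arrays. Both mLN values lay far above both pLN values, and the pLN arrays differed from each other by 0.03. The difference was 2.66 ± 0.21 (SE, n = 2 per node), which is 6.32-fold higher in mLN, with 7.57-fold in experiment 1 and 5.27-fold in experiment 2. Over the alternative ways of processing the arrays it ranged from 2.33 to 2.91.

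Cldn10, the other channel-forming member, had levels of 0.71 and 1.17 in mLN and −1.20 and −0.52 in pLN. Both mLN values were again the higher ones, with no overlap. The difference was 1.80 ± 0.31 (SE, n = 2 per node), 3.49-fold higher in mLN, and the ratios of the experiments were 3.76-fold and 3.23-fold. Within each node Cldn10 was higher in experiment 2, by 0.46 in mLN and by 0.68 in pLN, so its ratio varied less than its level.

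**Figure D1:**
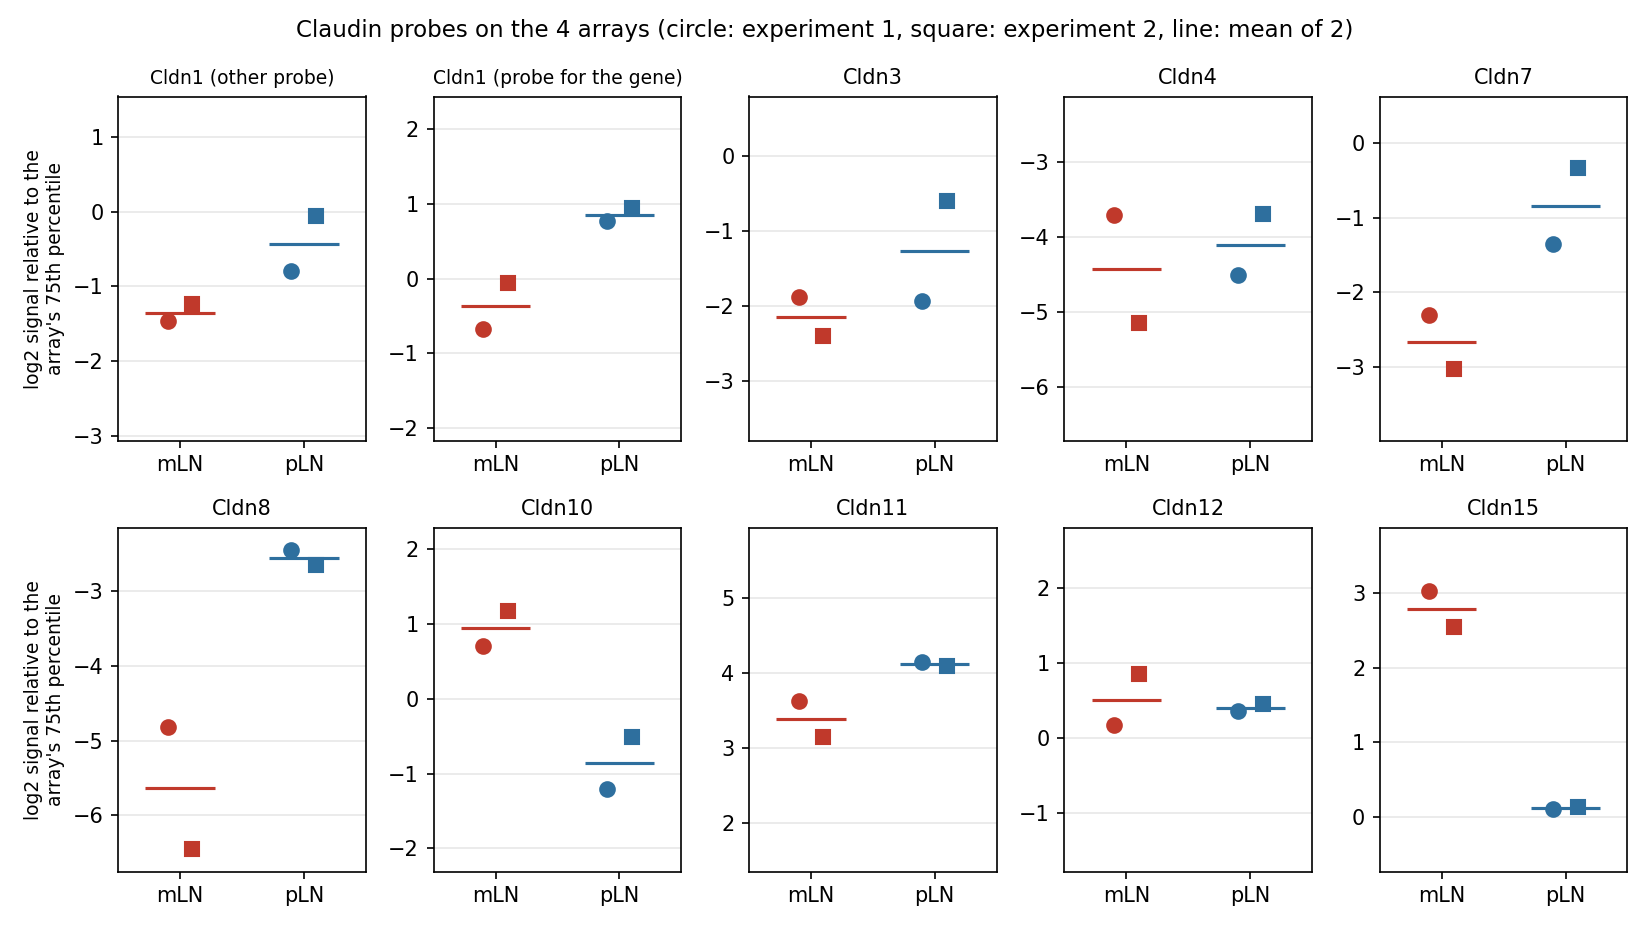
Levels of the 10 claudin probes on the 4 arrays, as log2 signal relative to the array's 75th percentile, with mLN on the left and pLN on the right of each panel. Circles are experiment 1, squares are experiment 2, lines are means of 2 arrays, and every panel spans the same number of log2 units. Cldn15 and Cldn10 lie higher in mLN on both arrays, Cldn1, Cldn7, Cldn8 and Cldn11 lie lower, and the nodes overlap for Cldn3, Cldn4 and Cldn12.

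Among the barrier-tightening claudins of glands and skin, Cldn8 had the most negative difference. It encodes a claudin of the distal nephron, colon and mammary epithelium. Levels were −4.82 and −6.45 in mLN, against −2.46 and −2.66 in pLN. On mLN array 2 the probe was not well above background (signal 19.8), so that array gives little more than an upper limit. The fitted difference was −3.08 ± 0.57 (SE, n = 2 per node), 8.43-fold lower in mLN with the dim array at its measured signal. In experiment 1, where both arrays were well above background, the ratio was 5.13-fold. The probe passed the filter only through pLN. Background correction by normexp brought the difference to −0.16, on a scale where the median of all genes was 0.38.

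Cldn7, which in epithelial membranes associates with the adhesion protein EpCAM, had levels of −2.31 and −3.03 in mLN and −1.35 and −0.33 in pLN. Its nodes did not overlap, but the arrays within a node lay far apart, and pLN array 2 was the highest of the 4. The difference was −1.82 ± 0.44 (SE, n = 2 per node), 3.54-fold lower in mLN, made up of 1.94-fold in experiment 1 and 6.46-fold in experiment 2. With normexp the difference was −0.67.

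Cldn1, which is required for the water barrier of the epidermis, was read by 2 probes on chromosome 16. The brighter probe gave −0.67 and −0.06 in mLN and 0.77 and 0.94 in pLN, a difference of −1.22 ± 0.25 (SE, n = 2 per node). The dimmer one gave −1.46 and −1.24 in mLN and −0.80 and −0.06 in pLN, a difference of −0.92 ± 0.29. Both probes were lower in mLN in both experiments without overlap, 2.33-fold and 1.89-fold. They differed in where the spread lay, since the mLN arrays differed by 0.61 on the brighter probe and by 0.22 on the dimmer one, and the pLN arrays by 0.17 and 0.73.

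Cldn3 and Cldn4, receptors of the Clostridium perfringens enterotoxin that are widely made in glandular and intestinal epithelium, showed no common direction. Cldn3 had −1.88 and −2.40 in mLN and −1.94 and −0.60 in pLN. Of these values 3 lay close together and pLN array 2 stood above them, so the difference of −0.87 ± 0.50 (SE, n = 2 per node) came from experiment 2 (−1.80) and not from experiment 1 (0.06). Cldn4 had −3.71 and −5.15 in mLN and −4.51 and −3.70 in pLN. The values of its nodes alternated, with 0.80 in experiment 1 and −1.45 in experiment 2, and the difference of −0.33 ± 0.58 turned positive when mLN array 2 (0.39) or pLN array 2 (0.08) was left out and with normexp (1.28).

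Cldn3, Cldn4 and Cldn7 shared the pattern of their arrays. The experiment 2 value minus the experiment 1 value was −0.52, −1.44 and −0.72 in mLN, and 1.34, 0.81 and 1.02 in pLN. In each gene, then, experiment 2 was the lower one in mLN and the higher one in pLN.

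Cldn11, known from the myelin of the brain and the Sertoli cells of the testis, had levels of 3.63 and 3.14 in mLN and 4.14 and 4.09 in pLN. The pLN arrays lay close together (SD 0.04, n = 2) and above both mLN arrays. The difference was −0.73 ± 0.21 (SE, n = 2 per node), 1.66-fold lower in mLN, with 1.43-fold and 1.93-fold in experiments 1 and 2. Cldn12, a claudin without the usual C-terminal anchor for scaffold proteins, had 0.17 and 0.85 in mLN and 0.35 and 0.46 in pLN. Both pLN values lay between the mLN values. The difference was 0.10 ± 0.27, and it was −0.24 without mLN array 2 and −0.047 with normexp.

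**Figure D2:**
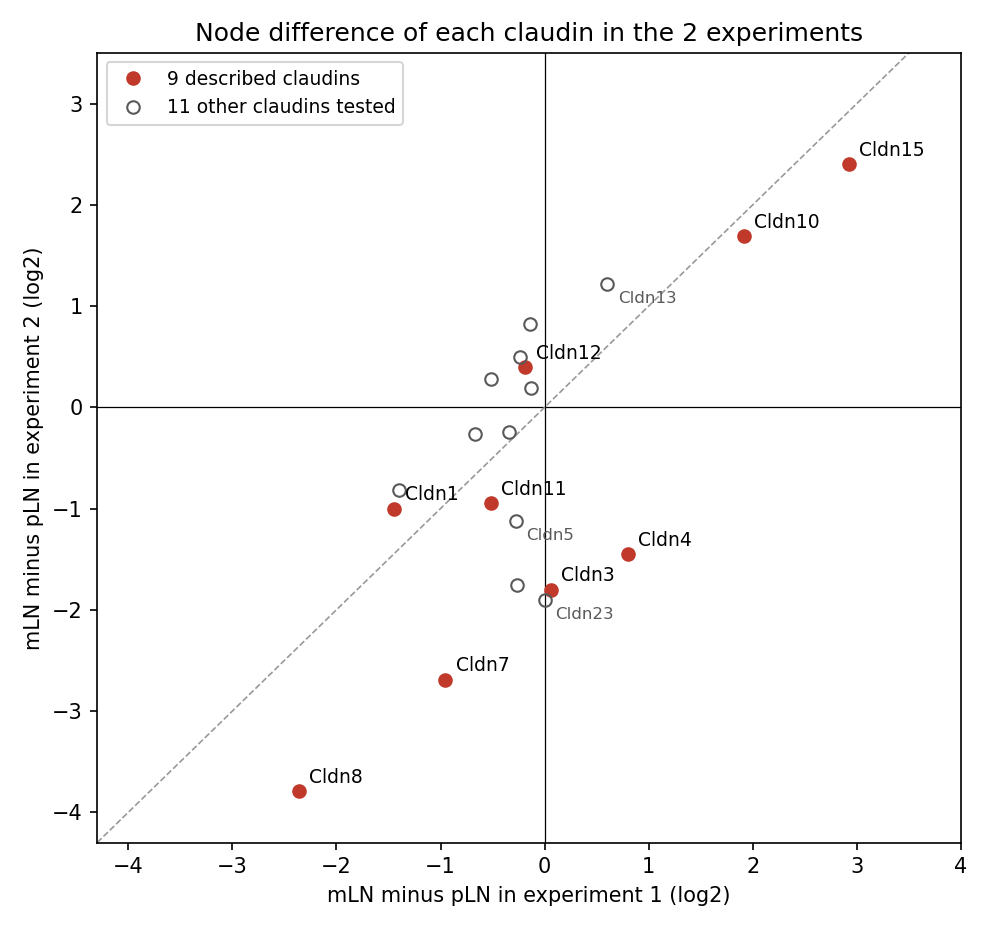
Difference of mLN minus pLN (log2) in experiment 1 (x axis) and in experiment 2 (y axis) for the 9 described claudins (filled) and 11 other claudins tested (open). The dashed line marks equal differences. Cldn15 and Cldn10 sit upper right near the line, Cldn7 and Cldn8 lower left and below the line, and Cldn3 and Cldn4 to the right of 0 in experiment 1 and below 0 in experiment 2.

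Differences between experiments did not enter the choice of the genes and were therefore tested. In an additive fit of node and experiment, 0 of the 9 members and 0 of 21392 genes passed (limma adjusted p under 0.05, 0% of all genes). At an unadjusted p under 0.05 there were 1 member and 9.1% of all genes. That member was Cldn10, 0.57 ± 0.15 higher in experiment 2 (limma adjusted p = 0.518). Cldn8 had a difference of −0.92 ± 0.40, experiment 2 minus experiment 1 (limma adjusted p = 0.596). With an intensity trend in the variance 44 genes passed. The experiment difference was larger than the node difference for 1 of 9 members, Cldn12, and for 43.2% of all genes, and nothing is read from this count, since the members were chosen on the node difference.

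The rest of the family was read as a list of 21 further claudins, of which 14 had a probe and 11 were tested. None of the 11 passed between the nodes (limma, 0 at an adjusted p under 0.05), and 2 had an unadjusted p under 0.05, Cldn19 and Cldn13, a share near the 14.7% of all genes. Of the 11, 4 were above 0 and 7 below 0, with a median of −0.29. Over all genes 9469 were above 0 and 11923 below 0, with a median of −0.03. Cldn5, the main claudin of endothelium, had levels of 6.89 and 5.97 in mLN and 7.17 and 7.09 in pLN. All pLN values lay above the mLN values, and the difference was −0.70 ± 0.34 (SE, n = 2 per node, limma adjusted p = 0.464). Cldn13, a claudin that mice have and humans lack, had 1.38 and 2.00 in mLN and 0.78 and 0.78 in pLN. Its difference was 0.91 ± 0.25 (limma adjusted p = 0.214). Cldn19, a claudin of the thick ascending limb and of Schwann cells, was read by 2 probes that disagreed, at −1.11 ± 0.19 (limma adjusted p = 0.113) for the brighter and 0.17 for the other. Cldn6 and Cldn23 had −1.01 ± 0.40 and −0.95 ± 0.49 (limma adjusted p = 0.368 and 0.493). The other tested claudins, Cldn2, Cldn9, Cldn14, Cldn17, Cldn22 and Cldn34c1, had differences from −0.47 to 0.35. Normexp turned Cldn6, Cldn9, Cldn17, Cldn19, Cldn22 and Cldn23 positive, on its shifted scale. Cldn16, Cldn18 and Cldn34d were not well above background on any array.

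Several claudins lie next to one another in the genome, and their values are given side by side without a test. On chromosome 5 of mm8 the probes of Cldn13 and Cldn4 lie 30.6 kb apart and those of Cldn4 and Cldn3 41.8 kb apart. Their differences were 0.91, −0.33 and −0.87. On chromosome 16 the probe of Cldn8 lies 54.7 kb from that of Cldn17, and the differences were −3.08 and −0.12. The closest pair, Cldn6 and Cldn9 on chromosome 17, has probes 1.14 kb apart, and both genes were lower in mLN without overlap, with −1.01 and −0.29.

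Proteins that work beside claudins were read from lists of 15 membrane partners, 24 plaque proteins and 22 regulators. Of 14 membrane partners tested none passed (limma), and 7 had an unadjusted p under 0.05, 4 of them below 0 and 3 above 0, where 14.7% of all genes did. The 3 above 0, Ildr2 (0.70), Lsr (0.61) and Igsf5 (0.81), were higher in mLN without overlap and are named after their values were seen (limma adjusted p = 0.286, 0.293 and 0.296). Epcam, the adhesion protein that holds claudin 7, had levels of −3.33 and −3.09 in mLN and −1.56 and −0.65 in pLN. Its nodes did not overlap, and mLN minus pLN came to −2.10 ± 0.34 (limma adjusted p = 0.105). The tricellular junction protein gene Marveld2 had −0.68 ± 0.13 (limma adjusted p = 0.131), Marveld3 had −0.91 ± 0.26 (0.233) and F11r, which encodes the junctional adhesion molecule JAM-A, had −0.41 ± 0.13 (0.284). Ocln, which encodes occludin, was well above background on 1 of 2 mLN arrays and had −0.98 ± 0.39 (limma adjusted p = 0.371), and normexp turned it to 1.56. Normexp also turned Marveld2 (0.28) and Marveld3 (0.80) positive. The median of the membrane partners was −0.25.

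In the plaque under the membrane, 1 of 23 genes tested passed, against 1.05% of all genes. This was Pard6b, which encodes a polarity protein of the Par complex. It had −1.27 and −1.04 in mLN and −2.81 and −3.00 in pLN, and it rose in mLN by 1.75 ± 0.17 (SE, n = 2 per node, limma adjusted p = 0.0365), 3.36-fold. The call ended with the experiment as a block (limma adjusted p = 0.0535), with normexp (0.689), without a filter on dim probes (0.107) and with any 1 array left out (0.0662 to 0.217). The scaffold genes had smaller values. Tjp1, which encodes ZO-1, had −0.28 ± 0.23 (limma adjusted p = 0.684), Tjp3 −1.02 ± 0.29 (0.23, the difference being 0.95 with normexp) and Cgn, which encodes cingulin, 0.93 ± 0.34 (0.334). The median of the plaque list was −0.08.

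Of 19 regulators tested, 3 passed, Twist1, Elf3 and Esrp1, each lower in mLN, where 0.276% of all genes were called lower. Elf3 and Esrp1 entered the test only through pLN, so Twist1 alone of the 3 was called and well above background on all 4 arrays. In pLN both were higher than in mLN but still dim, at −5.70 and −5.51 for Elf3 and −5.36 and −4.86 for Esrp1. Twist1, a mesenchymal transcription factor, had −3.97 and −4.33 in mLN and −0.63 and −0.42 in pLN. It fell by 3.63 in mLN, with an SE of 0.19 and 2 arrays per node (limma adjusted p = 0.0124), 12.4-fold. Elf3 and Esrp1, an epithelial transcription factor and an epithelial splicing regulator, lacked signal well above background on both mLN arrays. With these raised to the lowest signal well above background on the array, Elf3 was 2.28-fold lower in mLN and Esrp1 3.21-fold lower. These ratios are no bounds. On mLN array 2, Cldn8 exceeded that level and did not count as well above background. Normexp turned Elf3 to 1.27 and Esrp1 to 1.17, on its shifted scale. The p-values (limma adjusted p = 0.0175 for Elf3 and 0.0208 for Esrp1) belong to the fitted differences of −2.94 and −3.15, and not to these ratios. Those differences rest on mLN signals below the lowest signal well above background. The deposited value table (limma adjusted p = 0.0727 for Elf3 and 0.0717 for Esrp1) and testing without a filter on dim probes (0.0596 and 0.0655) ended both calls. Leaving out mLN array 2 or either pLN array did so too (limma adjusted p from 0.0502 to 0.159), leaving out either pLN array ended that of Twist1 (0.101 and 0.133), and normexp ended all 3 (0.689 to 0.707). Vdr, the vitamin D receptor gene, had −0.88 ± 0.18 (limma adjusted p = 0.136), and normexp turned it to 0.18. Cdh1, the gene of E-cadherin and a marker of epithelium, had −2.68 ± 0.43 (limma adjusted p = 0.104). Its difference ranged from −3.26 to −2.10 with 1 array left out, and normexp turned it to 0.069. Grhl2, a grainyhead factor that acts on claudin genes of mouse epithelium, had −6.53 and −4.24 in mLN and −6.58 and −5.33 in pLN, and its difference of 0.57 ± 0.89 turned negative in 3 settings (limma adjusted p = 0.851). The median of the regulators was −0.27. The repressor genes Snai1, Snai2, Zeb1 and Zeb2 had −0.34, 0.62, −0.27 and 0.54, and none passed; these 4 were chosen after their values were seen.

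**Figure D3:**
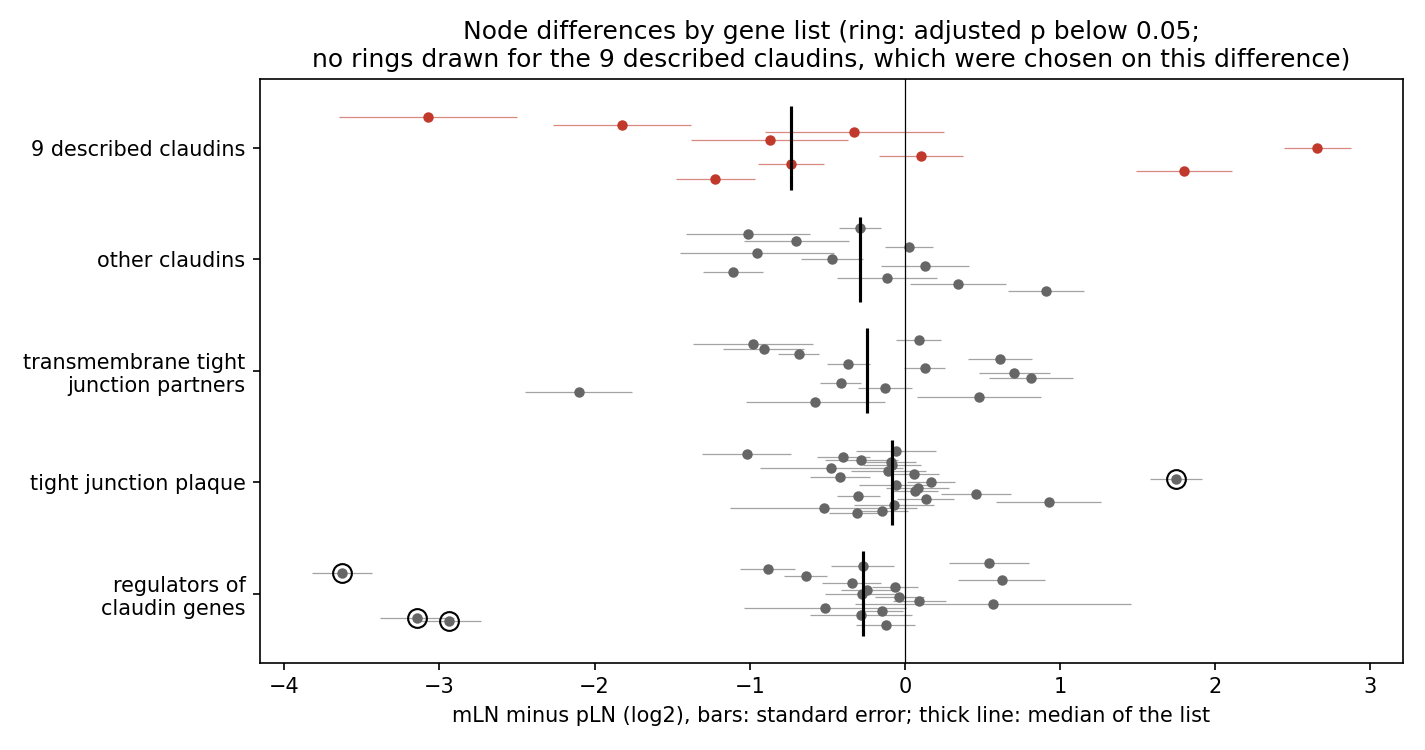
Difference of mLN minus pLN (log2, bars are standard errors from limma) for each gene of 5 lists, with the median of each list as a thick line. Rings mark genes with an adjusted p under 0.05, namely Pard6b in the plaque list and Twist1, Elf3 and Esrp1 among the regulators, and the fitted values of Elf3 and Esrp1 are no bounds. The 9 described claudins reach from −3.08 to 2.66, and no rings are drawn for them because they were chosen on this difference.

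Markers of the cell types that carry claudins also differed between the arrays. Of 11 mesothelium markers, all of them on the array, 8 were higher in mLN without overlap and 7 were called higher, beside 20.6% and 0.771% of all genes. Of the 7, Upk1b, Lrrn4, Wt1 and Bnc1 entered the test only through mLN. Upk1b and Lrrn4 were well above background on 1 of 2 pLN arrays. The summed signal of the 11 markers, in units of the 75th percentile, was 71.3 and 54.3 in mLN and 31.6 and 32.8 in pLN. The brightest of them in pLN was Gpm6a (log2 levels of 4.44 and 4.40), whose nodes overlapped, as did those of Krt8 and Krt18. Wt1 and Bnc1 lacked signal well above background on both pLN arrays. Of 13 glandular and surface epithelium markers 9 were lower in mLN without overlap, beside 25.1% of all genes. Called lower were 3 (Wfdc2, Csn3 and Esrp1), beside 0.276% of all genes, and called higher 1 (Krt7), beside 0.771%. With the experiment as a block Elf5 was called lower too (limma adjusted p = 0.04996, against 0.0764 without the block). This list shares Epcam and Esrp1 with the lists above. The summed signal of the 13 was 6.07 and 6.2 in mLN and 8.25 and 16.3 in pLN. Elf5 and Esrp1 lacked signal well above background on both mLN arrays and entered the test only through pLN. For the 8 pancreatic acinar markers the sum was 809 and 291 in mLN and 18.7 and 1.12 in pLN. All 8 were higher in mLN without overlap and 1 (Amy2a5) was called higher, beside 20.6% and 0.771% of all genes. With the experiment as a block Cel, Cpa1, Ctrb1 and Pnliprp1 were called higher too (limma adjusted p = 0.015, 0.0188, 0.0248 and 0.0476). In that fit 1.56% of all genes were called in either direction. Amy2a5, Pnlip, Cela2a and Pnliprp1 entered the test only through mLN. For lymphatic endothelium, with 7 of 7 markers tested, the sum was 59.1 and 37.9 in mLN and 54.6 and 42.9 in pLN. For blood endothelium it was 103 and 95.3 in mLN and 134 and 126 in pLN. Of the lymphatic markers 2 (Lyve1 and Reln) were higher and 2 (Prox1 and Mmrn1) lower in mLN without overlap. Of 7 blood endothelium markers 0 were higher and 5 lower without overlap, beside 20.6% and 25.1% of all genes. In these 2 lists 0 markers were called. Fibroblastic reticular cell markers summed to 489 and 612 in mLN and 495 and 552 in pLN. The 7 myelin and Schwann cell markers summed to 26.7 and 23.6 in mLN and 19.3 and 21.4 in pLN. Of these 4 were higher in mLN without overlap, 0 were lower and 1 (Gfra3) was called higher, beside 20.6%, 25.1% and 0.771% of all genes. The call of Gfra3 (limma adjusted p = 0.0497) ended with the experiment as a block (0.0557).

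Beside Cldn15 and Cldn10, the mesothelial and pancreatic marker sums were higher in mLN. The order of the experiments differed, since Cldn10 was higher in experiment 2 in both nodes. In contrast, the pancreatic sum was higher in experiment 1 in both nodes, and the mesothelial sum was so in mLN only. The intestinal sum was 1.64 and 2.47 in mLN and 0.695 and 0.693 in pLN, with 4 of 7 markers tested, and most of it in mLN came from Krt20 (difference 2.52, limma adjusted p = 0.0573, or 0.0314 in the blocked fit). Of the other intestinal markers, Vil1 was lower in mLN without overlap (−0.95), Lgals4 higher without overlap (0.61) and Fabp2 overlapped (0.11). Beside Cldn3, Cldn4 and Cldn7, the glandular sum was higher on pLN array 2 than on pLN array 1, as were these claudins, and differed little between the mLN arrays. That sum rested mainly on different genes in the nodes. In mLN the brightest markers were Krt7 (1.83 and 1.61) and Trps1 (0.38 and 0.98), both higher in mLN without overlap. On pLN array 2 the brightest were Csn3 (2.83) and Wfdc2 (2.03). The pancreatic sum was higher in experiment 1 in both nodes, which was the order of these claudins in mLN and the opposite of their order in pLN. Beside Cldn11 and Cldn5, the sums of both endothelia were lowest on mLN array 2, as were both genes. Both genes and the blood endothelial sum were higher on both pLN arrays than on either mLN array. The lymphatic sum differed from that order and was highest on mLN array 1 (59.1). The part of these cell types in the claudin values was not tested.

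**Figure D4:**
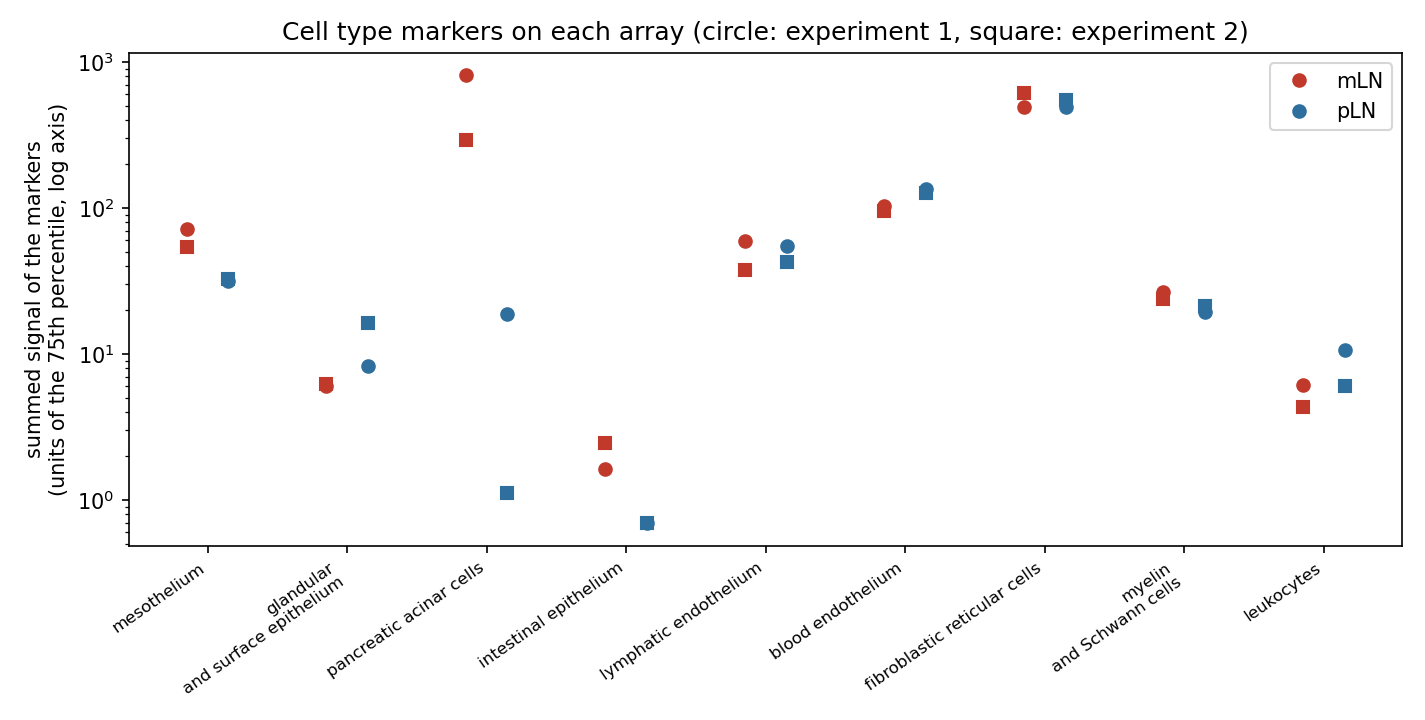
Summed signal of the markers of 9 cell types on each array, in units of the array's 75th percentile on a log axis, with mLN left of pLN. Circles are experiment 1 and squares experiment 2. Pancreatic acinar markers span from 1.12 to 809, and glandular markers are highest on pLN array 2 at 16.3.

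The genes most like Cldn15 and Cldn8 over the 4 arrays were found by the root mean square difference of centred log2 levels, among 16905 other genes with a current symbol. For Cldn15 they were Zfp185 (0.05), Fgf1 (0.09) and Efna5 (0.11). For Cldn8 they were Mab21l1 (0.07), Clec4e (0.25) and Ido1 (0.27). Mab21l1 was well above background on 1 of 2 mLN arrays. These distances rest on 4 arrays from 2 experiments and describe these arrays alone.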

How the data were processed

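Agilent Feature Extraction 9.5.3.1 made the deposited intensity values, as the submitters' processing notes and the headers say. Its parameters, per the file headers, were background subtraction, detrending within the array and surrogates for low spots. Among other columns deposited are flags of 0 or 1 that mark outlier spots, saturated spots and signals well above background. The 4 arrays lie on 1 slide and were scanned together, which leaves nothing to estimate a slide effect from. The deposited value table holds intensity values equal to the mean processed signal times 1 factor per array (0.862 and 0.867 for mLN, 0.865 and 0.89 for pLN), with values under 15 set to 15, as found by comparison. Its medians were 172 and 161 for mLN and 169 and 167 for pLN, on a linear scale. It served as an alternative.

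From the processed signals, control and outlier spots were dropped, replicate spots averaged and values put on a log2 scale, from which the 75th percentile of each array (1741 and 1730 for mLN, 1734 and 1686 for pLN) was subtracted. Kept were the 31883 of 41155 probes with signal well above background on both arrays of mLN, of pLN or of each. Where a gene had several, the one with the highest mean stood for it. Genes were named by accession, symbol or synonym from RefSeq (GRCm38.p6), and the claudins by the name in the files, which was the same.

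Differences were tested with limma 3.58.1 (lmFit, eBayes, R 4.3.3) over 21392 genes, 2 mLN against 2 pLN arrays, with Benjamini-Hochberg adjustment and a threshold of 0.05. An exact permutation of 2 against 2 cannot go below 0.333. The fits were also run on simulated arrays with independent noise, where only the average recovery of planted differences was required. That run does not vouch for the p-values. Experiment numbers pair an mLN with a pLN sample, since the design text speaks of independent approaches (deviations of the experiments in the nodes correlated at 0.246 across genes). The blocked value is given where it changed the call of a gene named with a value, apart from the members and the genes most like them.

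The members and lists were chosen with earlier results of these data known. Named were all members, all other claudins (by value or in a count), of each other list the genes called and, up to 4 in all, those with the smallest p, Ocln, Tjp1, Epcam, Grhl2 and Cdh1, and the 3 genes most like the members with the most positive and most negative difference. Of the genes this rule names, 1 is not reported here. The number of arrays limits the precision.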

Additional observations from a re-analysis of the deposited data

How the results depend on the processing

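Of the 9 members, Cldn1, Cldn3, Cldn7, Cldn8, Cldn10, Cldn11 and Cldn15 kept their direction in every alternative run. Normexp moved the median of all genes to 0.38 (from −0.03), so its values are relative to that shift; there Cldn4 was 1.28, Cldn12 −0.047, Elf3 1.27, Esrp1 1.17, Ocln 1.56, Cdh1 0.069, Vdr 0.18, Tjp3 0.95, Marveld2 0.28, Marveld3 0.80, Cldn19 0.28, Cldn6 1.19, Cldn22 0.50, Cldn9 0.29, Cldn17 1.46 and Cldn23 1.49. The mean of probes gave Grhl2 −0.59. With 1 array left out, Cldn4 ranged from −1.05 to 0.39, Cldn12 from −0.24 to 0.45, Grhl2 from −1.19 to 1.71, Cldn2 from −0.24 to 0.50, Cldn14 from −0.061 to 0.75, Cldn17 from −0.55 to 0.31 and Cldn34c1 from −0.068 to 0.12. Genes called between the nodes numbered 224, and 0 with normexp, 354 with median scaling, 44 without a filter on dim probes, 440 with an intensity trend, 333 with the replicate block, and 0 to 234 with 1 array left out (0 without pLN array 1 and 0 without pLN array 2). The higher share of calls was 73.7%, against 84.1% without the filter and 88.8% without mLN array 2. Calls in the 4 other lists numbered 4, and 0 with normexp, 2 with the deposited table, 1 without a filter, 2 with probes well above background on all 4 arrays, 3 with the replicate block and 0 to 3 with 1 array left out. Between experiments 44 genes were called with the intensity trend and 0 otherwise. The replicate block ended the calls of Pard6b and Gfra3 and of no other named gene. The cause of these changes was not tested. With 1 array left out, the lone array of a node is assumed to vary like the other node. Signal near background limits Cldn8 in mLN.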

Other observations

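Outside the tight junction strand, 2 genes of the claudin domain family were on the array, Cldnd1 and Cldnd2, chosen after their values were seen. Cldnd1 had signals of 8416 and 7499 in mLN and 6803 and 8455 in pLN on its brighter probe, and its probes had differences of 0.05 ± 0.19 and 0.06 ± 0.19 (SE, n = 2 per node, limma adjusted p = 0.956 and 0.934 over all probes). Its nodes overlapped on both probes. Cldnd2 had signals of 158 and 179 in mLN and 228 and 184 in pLN, a difference of −0.30 ± 0.18 (limma adjusted p = 0.567 over all probes).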
